A study of Mus musculus with 12 samples.

Results

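The response to the oncogenes MET and beta-catenin was examined in livers that lack Sirt2 in hepatocytes. Of the 12 whole-liver RNA-seq libraries of the study, 6 enter the comparison: 3 of KO MET/CAT and 3 of KO GFP livers, grouped by their sample titles. It was made for the 13871 of 47263 genes whose normalized count reached at least 10 in at least 3 of the 12 libraries. All 6 libraries are from livers with a hepatocyte-specific knockout of Sirt2, a NAD-dependent deacetylase. The Cre or promoter behind the knockout is not named in the labels. KO MET/CAT mice received, by hydrodynamic tail-vein injection, the Sleeping Beauty transposase with transposons for c-MET and for DN90-beta-catenin, an amino-terminally truncated form. GFP marks the control plasmid, whose cocktail the labels do not describe. Mice were 6 to 8 weeks old at injection, were age- and gender-matched, and their livers were taken 8 weeks later. The same injections in mice with intact Sirt2 (WT GFP and WT MET/CAT, 3 libraries each) are set beside the KO values.

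The labels set limits. Their treatment field names MET/CAT for every KO library, KO GFP included, and GFP for every WT library, WT MET/CAT included. It so contradicts the titles in both genotypes. Nothing states that each replicate is a separate mouse, and p-values then measure the spread between these libraries, which may be technical. The samples are whole liver, so that fewer cells of a type and less RNA per cell cannot be told apart.

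MET is the receptor for hepatocyte growth factor, and beta-catenin is the effector of canonical Wnt signalling, which in liver drives the program of hepatocytes around the central vein, glutamine synthetase among them. Together they are a common way to induce hepatocellular tumours in mice. Liver also carries the acute phase response, in which cytokines such as interleukin 6 and interleukin 1 act on hepatocytes through STAT3, NF-kappaB and C/EBP factors to raise secreted proteins like serum amyloid A.

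The 12 libraries held 18208879 to 24352961 reads. Alb, Ttr, Apoa1, Cps1, Hnf4a and Serpina1a, which mark hepatocytes, were present in every library, at a summed 2015828 to 3364921 normalized counts. Pnlip and Umod, markers of pancreas and kidney, were at 0 in all 6 KO libraries. Sirt2 stood at 233, 183 and 126 normalized counts in KO GFP replicates 1 to 3 and at 248, 234 and 201 in KO MET/CAT replicates 1 to 3 (log2 difference 0.37, SE 0.23, limma adjusted p = 0.365). Every one of the 6 WT libraries was higher, from 726 to 1068, so that the Sirt2 level followed the genotype in the labels. KO GFP replicate 3 stood apart from the other libraries. It lay at -88.95 on the first principal component, against -33.2 to 52.8 for the other 11, and its genes deviated with transcript length (Spearman rho 0.435 across 13816 genes, against -0.334 to 0.173). Values without it are therefore given beside many of the results below, though not for every gene.

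Among the genes that rose in KO MET/CAT against KO GFP livers were 6 of 26 tested acute phase genes, 3 of 8 metallothionein and metal transport genes, 6 of 12 genes of the neutrophil list and 4 of 17 chemokines. The neutrophil genes that rose include Lrg1, which hepatocytes also make. Among those that fell were 3 of 18 major urinary protein genes, Nrep and Cyp7a1. In all, 119 genes rose, 0.858% of the genes tested, and 55 fell, 0.397%. Calls rest on a limma fit of log2(normalized count + 1) and a threshold of 0.05 on the p-value after Benjamini-Hochberg adjustment. An unadjusted p under 0.05 was found for 2818 genes. Among the genes that rose, 111 did so by more than 1 log2 unit and 66 by more than 2. Among those that fell, 50 exceeded 1 and 11 exceeded 2. None of the 174 called genes overlapped between the 3 KO GFP and the 3 KO MET/CAT libraries. Over all tested genes, 14.4% were higher without overlap and 10.7% lower. The median log2 difference of all tested genes was 0.05, with 53.2% of them higher and 46.8% lower in value.

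**Figure D1:**
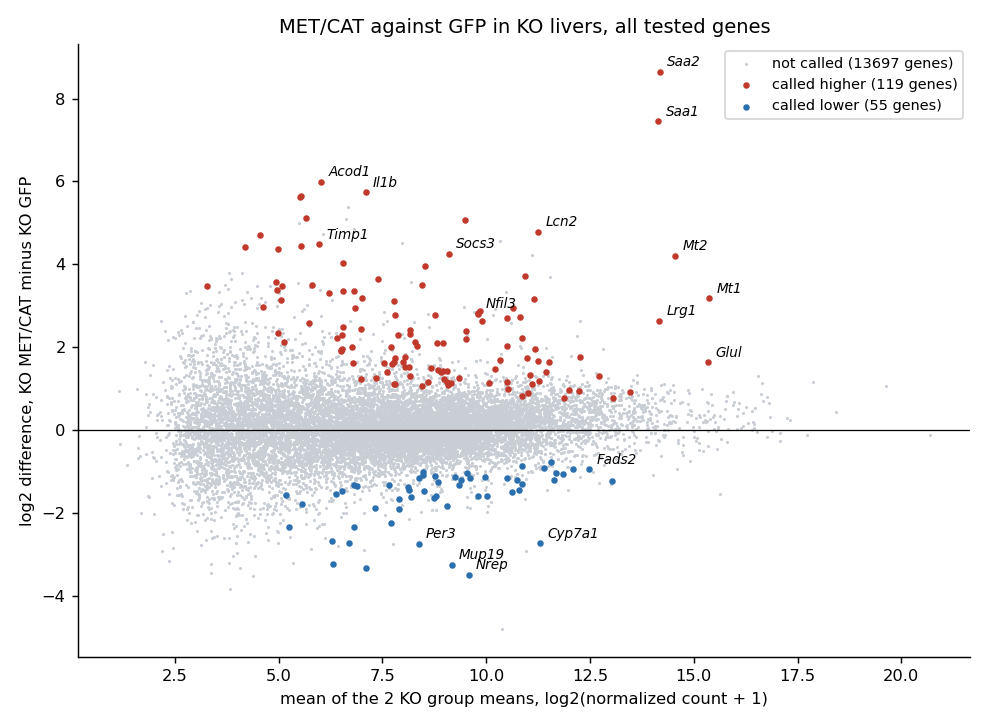
Each point is 1 of the 13871 tested genes. The x axis is the mean of the KO GFP and KO MET/CAT group means as log2(normalized count + 1), and the y axis the log2 difference KO MET/CAT minus KO GFP. The 119 genes called higher (red) reach 8.64 for Saa2, while the 55 called lower (blue) reach -3.50 for Nrep.

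The number of calls depended on single libraries and on the tool. Leaving out KO GFP replicate 1, 2 or 3 left 67, 61 or 68 called genes, and leaving out KO MET/CAT replicate 1, 2 or 3 left 56, 48 or 132. edgeR's quasi-likelihood test called 202 genes, 164 of them among the 174, and DESeq2 called 928. Scaling to equal library totals moved the median of all genes to -0.17 and the split of calls to 83 higher and 108 lower. Quantile normalization gave 109 higher and 89 lower, and removal of each library's transcript length trend 134 and 113. Leaving out WT GFP replicate 1 gave 78 calls and leaving out WT MET/CAT replicate 1 gave 263, through the shared estimate of the spread. The log2 differences fell with transcript length (Spearman rho -0.282 across 13816 genes). No named gene changed sign where it was called.

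The 2 genes with the highest log2 differences, Saa2 and Saa1, belong to the acute phase list. Of its 26 tested genes, 6 rose and none fell, with a median log2 difference of 1.02. Saa2, a serum amyloid A apolipoprotein secreted by hepatocytes in inflammation, was at 135, 152 and 33.4 normalized counts in the KO GFP libraries and at 37577, 24439.8 and 49898 in the KO MET/CAT libraries. Saa1, its neighbour, went from 343, 271 and 81.4 to 34133, 24770.4 and 49398. The lowest KO MET/CAT value of either gene lay far above the highest KO GFP value. The log2 differences were 8.64 (SE 1.09, limma adjusted p = 0.0041) for Saa2 and 7.46 (SE 0.92, limma adjusted p = 0.00406) for Saa1. Their longest annotated transcripts are 87.3% identical, so reads could be split between them, and their separate levels are uncertain.

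Socs3, the feedback inhibitor of JAK-STAT signalling, was at 35.4, 37.5 and 44.3 in KO GFP and 2267, 549 and 350.3 in KO MET/CAT livers (log2 difference 4.25, SE 0.63, limma adjusted p = 0.00741). KO MET/CAT replicate 1 was the highest. Lcn2, a siderophore-binding protein secreted by hepatocytes and neutrophils, was at 91.9, 253 and 129 under GFP and 7783, 1856 and 4490.0 under MET/CAT (log2 difference 4.79, SE 0.85, limma adjusted p = 0.0185). Orm2, an orosomucoid plasma protein, was at 244, 265 and 121 under GFP and 2589, 942 and 1178 under MET/CAT (2.83, limma adjusted p = 0.0185), and its relative Orm3 also rose (log2 difference 2.78, adjusted p = 0.0259). The longest transcripts of Orm2 and Orm3 are 88.0% identical. Lrg1, a leucine-rich glycoprotein made by hepatocytes in the acute phase and also held by neutrophils, was on the neutrophil list. It was at 5422, 8056 and 2932 in KO GFP and 31998, 29728 and 32494 in KO MET/CAT livers (log2 difference 2.64, SE 0.40, limma adjusted p = 0.00764).

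Other acute phase genes were higher in value without passing the test. Of the 26 tested genes, 25 had a higher value and 19 were higher without overlap, against 53.2% and 14.4% of all tested genes. Stat3 (log2 difference 1.17, adjusted p = 0.0726), the haptoglobin gene Hp (log2 difference 1.13, adjusted p = 0.0965) and the fibrinogen chain Fgg (log2 difference 0.81, adjusted p = 0.127) missed the threshold, as did Saa3 (log2 difference 4.56, adjusted p = 0.0985), whose KO MET/CAT values were 6739.8, 463 and 347. Saa1, Saa2, Socs3 and Lrg1 passed in all 6 fits that left out 1 KO library, Orm2 in 4 and Lcn2 in 3. Without KO GFP replicate 3 or KO MET/CAT replicate 1, 3 of the 26 were called, and without the former the median was 0.90. With the transcript length trend removed the median was 0.57.

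Metallothioneins, small cysteine-rich proteins that bind zinc and copper, rose as well. Mt2 was at 3255, 2262 and 1920.1 normalized counts in KO GFP and 44734, 33195 and 59306 in KO MET/CAT livers (log2 difference 4.20, SE 0.50, limma adjusted p = 0.00406). Mt1 was at 10149, 8056 and 6767 under GFP and 71657, 57931 and 98874 under MET/CAT (log2 difference 3.18, SE 0.40, limma adjusted p = 0.00406). The KO GFP and KO MET/CAT libraries lay far apart, and both genes passed in all 6 fits without 1 KO library. Slc30a10, a manganese exporter of the zinc transporter family, went from 242, 166 and 164 to 712, 843 and 852 (log2 difference 2.09, SE 0.35, limma adjusted p = 0.014). These were the 3 of 8 tested genes of metal handling that rose, and none fell. The importer Slc39a14 (log2 difference 0.67, adjusted p = 0.309) and Mtf1, the zinc-sensing transcription factor that binds metallothionein promoters (log2 difference -0.40, adjusted p = 0.354), did not pass.

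**Figure D2:**
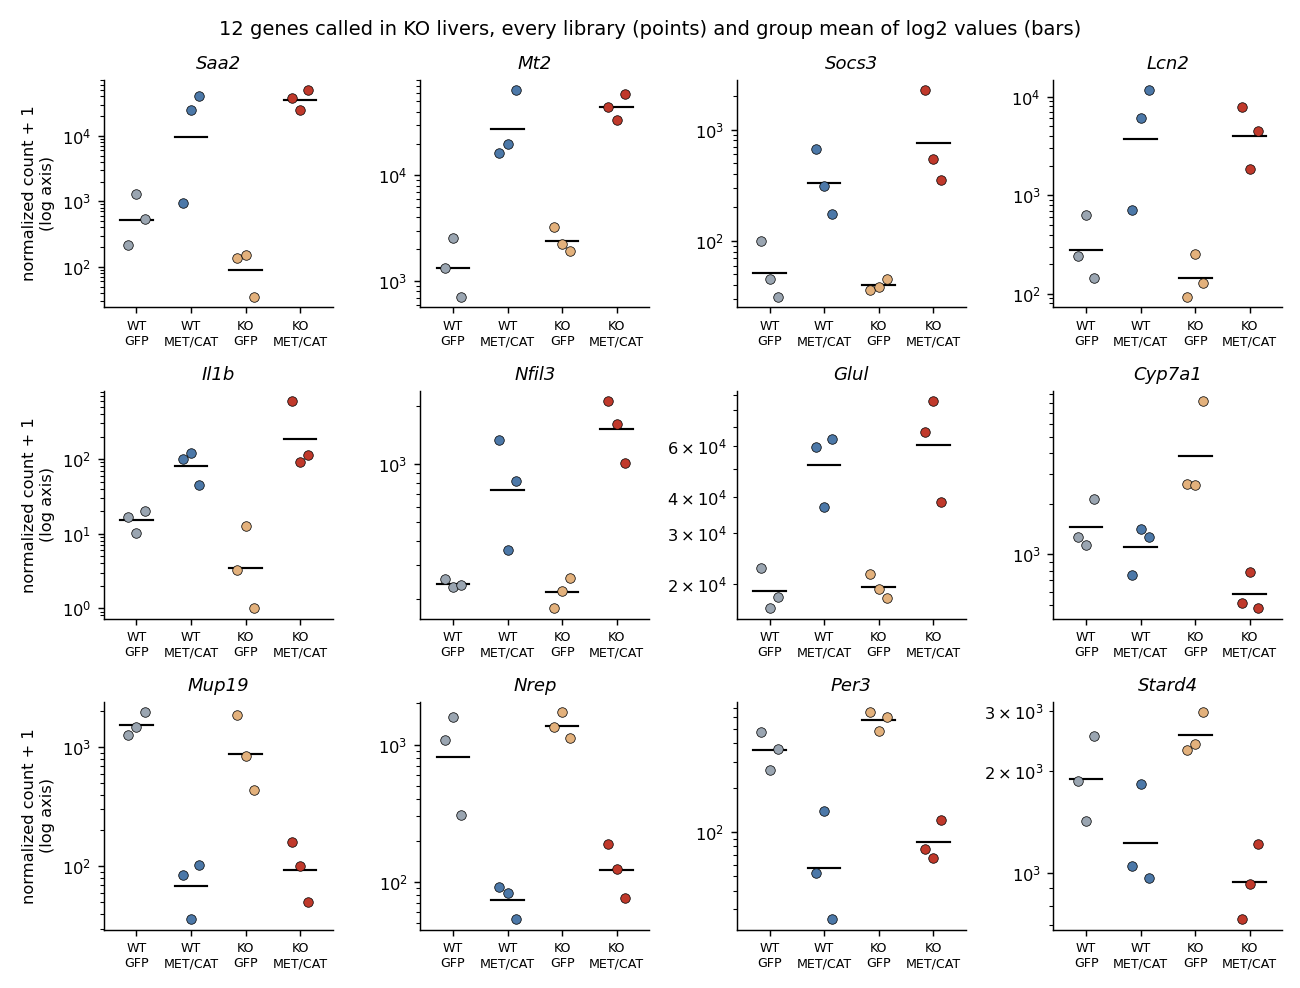
Normalized count + 1 on a log axis for 12 called genes in all 12 libraries (points, 3 per group) with the mean of the log2 values of each group (bars). In the KO groups no point overlaps for any of the 12 genes, with Saa2 at 33.4 to 152 in KO GFP and 24439.8 to 49898 in KO MET/CAT livers.

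Promoters of 6 genes that rose are shown with letters read by factors of metal and acute phase responses. They were picked after values and matches were seen. Each window is the 250 bases before the RefSeq start on GRCm38.p6, given 5′ to 3′ on the strand of the gene, with matches in capitals. A metal response element core was searched as TGCACNC or TGCGCNC on both strands. Mt2 (chr8:94172368-94172617, plus strand) has 3 matches, beside 1 of the C/EBP letters below that is left in lower case, and Mt1 (chr8:94178839-94179088, plus strand) has 1.
Mt2: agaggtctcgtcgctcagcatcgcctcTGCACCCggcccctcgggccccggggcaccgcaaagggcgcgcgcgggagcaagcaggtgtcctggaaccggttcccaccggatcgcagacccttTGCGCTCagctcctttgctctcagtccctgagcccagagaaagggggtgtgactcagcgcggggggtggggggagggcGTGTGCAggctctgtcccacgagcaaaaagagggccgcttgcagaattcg
Mt1: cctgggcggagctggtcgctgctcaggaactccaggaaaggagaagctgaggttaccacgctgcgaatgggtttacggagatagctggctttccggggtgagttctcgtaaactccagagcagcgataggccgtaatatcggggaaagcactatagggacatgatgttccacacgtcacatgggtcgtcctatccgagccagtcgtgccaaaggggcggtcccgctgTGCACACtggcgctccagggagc
The C/EBP letters TTGCNNAA were found 1 time in each of Saa1 (chr7:46742981-46743230, minus strand) and Saa2 (chr7:46751583-46751832, plus strand), which face away from each other on chromosome 7.
Saa1: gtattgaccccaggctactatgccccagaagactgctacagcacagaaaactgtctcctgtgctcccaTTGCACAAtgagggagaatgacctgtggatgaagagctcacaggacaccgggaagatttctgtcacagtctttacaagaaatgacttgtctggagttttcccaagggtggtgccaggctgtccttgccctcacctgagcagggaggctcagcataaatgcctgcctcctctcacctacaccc
Saa2: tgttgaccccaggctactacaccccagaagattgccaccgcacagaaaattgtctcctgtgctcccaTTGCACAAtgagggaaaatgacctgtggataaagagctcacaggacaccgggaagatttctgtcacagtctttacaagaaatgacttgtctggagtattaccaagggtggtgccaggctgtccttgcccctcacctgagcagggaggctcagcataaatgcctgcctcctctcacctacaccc
Cxcl1 (chr5:90890995-90891244, plus strand) holds 2 overlapping matches of the kappaB consensus, and Socs3 (chr11:117969367-117969616, minus strand) 1 match of the STAT letters TTCNNNGAA. The Socs3 window lies inside the gene as annotated by GENCODE, which starts further upstream, at 117970047.
Cxcl1: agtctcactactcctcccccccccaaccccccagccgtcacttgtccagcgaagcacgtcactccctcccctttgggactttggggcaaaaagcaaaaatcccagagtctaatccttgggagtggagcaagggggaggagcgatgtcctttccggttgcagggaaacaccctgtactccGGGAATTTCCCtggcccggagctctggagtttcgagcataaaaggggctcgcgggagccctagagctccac
Socs3: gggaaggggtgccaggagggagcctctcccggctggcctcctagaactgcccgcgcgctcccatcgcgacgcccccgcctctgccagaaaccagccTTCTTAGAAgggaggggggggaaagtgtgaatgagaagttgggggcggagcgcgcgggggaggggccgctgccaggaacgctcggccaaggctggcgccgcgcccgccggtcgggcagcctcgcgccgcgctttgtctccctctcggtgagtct
The same letters were searched in further genes. Lcn2 held 1 C/EBP match, Timp1 and Junb 1 metal response core each, and Il1b, Lrg1, Nfil3 and Arntl none of these letters. Per3, which fell, held 3 metal response cores, and Dbp 4 with 1 STAT match. Such matches are common. Of all 32851 windows, 21.4% hold the metal response core, 9.56% the C/EBP letters, 7.25% the kappaB consensus and 7.02% the STAT letters. The windows of genes that rose held them in 28.8%, 12.7%, 6.78% and 5.08% of 118 windows, and those of all tested genes in 29.3%, 8.02%, 8.77% and 6.07% of 13486. The letters TAGGTCA and CACGTG were searched as well, and Nfil3 held 1 match of TAGGTCA. Windows of genes that rose held TAGGTCA in 5.08% and CACGTG in 8.47%, and those of all tested genes in 1.8% and 7.99%. A window was found for 139 of the 174 called genes. A match describes letters and is not a measured site.

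Neutrophil genes formed the list with the highest median, 3.51, and 6 of 12 tested members rose with none falling. Lrg1, also made by hepatocytes, is among them and was already at 2932 to 8056 normalized counts in KO GFP livers. The count was 3, 5 and 2 without KO GFP replicate 1, 2 and 3 and 4, 5 and 5 without KO MET/CAT replicate 1, 2 and 3. S100a9 and S100a8 encode the subunits of calprotectin, the main cytosolic protein of neutrophils. S100a9 was at 24.1, 49.9 and 18.98 in KO GFP and 1616, 198 and 304 in KO MET/CAT livers (log2 difference 3.97, SE 0.70, limma adjusted p = 0.0179). S100a8 was at 18.8, 16.3 and 12.7 under GFP and 714, 73.2 and 168 under MET/CAT (log2 difference 3.63, SE 0.62, limma adjusted p = 0.014). KO MET/CAT replicate 1 held the highest value of both by a wide margin. The gelatinase Mmp9 (log2 difference 4.44, adjusted p = 0.0296) also rose, as did Cxcr2, the chemokine receptor that draws neutrophils into tissue (log2 difference 4.41, adjusted p = 0.0417).

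Cxcr2 had 0 reads over the 3 KO GFP libraries and 89 over the KO MET/CAT libraries. With the KO GFP group set at a floor of 3 reads in total, it was at least 37.8-fold higher. The interleukin Il1b, made by neutrophils and macrophages, was at 2.26, 11.5 and 0 under GFP and 595, 91.02 and 114 under MET/CAT (log2 difference 5.74, SE 0.85, limma adjusted p = 0.00741), and with Lrg1 completes the 6. Retnlg (log2 difference 3.38, adjusted p = 0.0557) and Csf3r (log2 difference 3.003, adjusted p = 0.0848) missed the threshold. Ngp (log2 difference 0.005, adjusted p = 0.999) and Camp (log2 difference 0.44, adjusted p = 0.866), granule genes of immature neutrophils, were not called either. The 6 neutrophil markers S100a8, S100a9, Cxcr2, Mmp8, Retnlg and Csf3r, of which 3 were called higher, summed to 57.0 to 81.6 normalized counts in KO GFP and 409 to 3051 in KO MET/CAT livers. The WT sums were 77.1 to 173 under GFP and 312 to 1053 under MET/CAT. Cxcr2 was at 0 in all KO GFP libraries. The part of cell number in these rises was not tested.

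Of 17 tested chemokine genes 4 rose, with a median of 1.58. The count was 2, 2 and 2 without KO GFP replicate 1, 2 and 3 and 1, 3 and 2 without KO MET/CAT replicate 1, 2 and 3. Cxcl1, which attracts neutrophils, went from 45.9, 29.8 and 25.3 to 2796, 576 and 868 (log2 difference 5.06, SE 0.83, limma adjusted p = 0.0122). Cxcl13, a B-cell attractant, was at 0.753, 0.961 and 0 in KO GFP and 65.03, 36.6 and 169.8 in KO MET/CAT livers (5.64, limma adjusted p = 0.00406). It rested on 2 reads against 249, a ratio of 159 after scaling for depth (95% exact counting interval 43.4 to 1317). Here KO MET/CAT replicate 3 was the highest.

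Ccl7, a monocyte attractant, had 2 reads against 251, a ratio of 160 with an interval of 43.8 to 1327 (log2 difference 5.11, adjusted p = 0.0447). Most of that came from KO MET/CAT replicate 1, at 259 against 16.7 and 21.2 in the others, and its call was lost in each of the 6 fits without 1 KO library. Ccl6 rose less (log2 difference 1.62, adjusted p = 0.0451). Acod1, the enzyme of activated macrophages that makes itaconate, had 1 read in all KO GFP libraries and 329 in the KO MET/CAT libraries, a ratio of 419 (74.7 to 16603), and per library it was at 306, 38.7 and 40.3 (log2 difference 5.99, SE 0.996, limma adjusted p = 0.0126). These intervals cover counting error only. Of the 174 called genes, 16 were under 10 in every KO GFP library and so passed the filter through other groups.

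**Figure D3:**
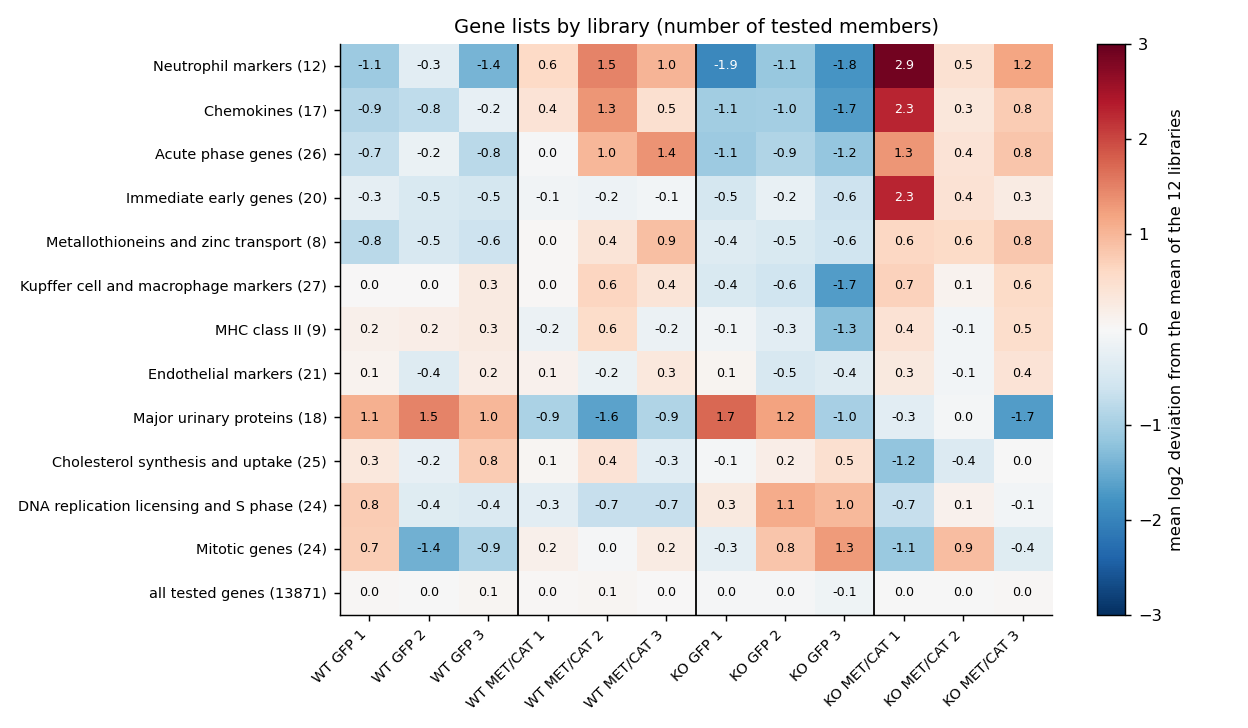
Mean log2 deviation of each gene list (rows, number of tested members in brackets) from the mean of all 12 libraries, per library (columns), on a scale from -3 (blue) to 3 (red). Neutrophil markers stand at 2.9, 0.5 and 1.2 in KO MET/CAT replicates 1 to 3 and immediate early genes at 2.3, 0.4 and 0.3, and macrophage markers are lowest in KO GFP replicate 3.

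Macrophage and antigen presentation genes were higher, but much of the difference lay in KO GFP replicate 3. Of 27 tested Kupffer cell and macrophage markers 4 rose, with a median of 1.28 that became 0.64 without that library, where 3 were called. Without KO MET/CAT replicate 1, 2 or 3 the count was 2 each time. Marco, a scavenger receptor, was at 79.8, 122 and 13.6 in KO GFP and 454, 495 and 942 in KO MET/CAT livers (log2 difference 3.51, SE 0.67, limma adjusted p = 0.0263). Spic, a transcription factor of iron-recycling macrophages, went from 19.6, 11.5 and 14.5 to 253, 106 and 153 (log2 difference 3.34, SE 0.48, limma adjusted p = 0.00728). Laptm5, a lysosomal membrane protein of blood cells, went from 224, 246 and 164 to 756, 556 and 477 (log2 difference 1.49, SE 0.22, limma adjusted p = 0.00764). Spic and Laptm5 passed in all 6 fits without 1 KO library, Marco and Fcer1g, the Fc receptor gamma chain (log2 difference 2.002, adjusted p = 0.0461), in 2.

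The defining macrophage markers were not called. Adgre1, Clec4f, Vsig4, Timd4, Cd5l, Csf1r, C1qa, C1qb and C1qc, 9 genes, summed to 1637 to 5299 normalized counts in KO GFP and 7022 to 9495 in KO MET/CAT livers. The WT GFP and WT MET/CAT sums were 8426 to 11364 and 5739 to 9483, so that the KO GFP livers were the low group. Of 9 tested MHC class II genes 3 rose: Cd74, the invariant chain (log2 difference 1.47, adjusted p = 0.0296), H2-Aa (log2 difference 1.39, adjusted p = 0.0386) and H2-Ab1 (log2 difference 1.26, adjusted p = 0.0449). Cd74 was at 842, 783 and 338 in KO GFP and 2022, 1320.3 and 1767 in KO MET/CAT livers, and WT GFP livers held 1308, 1565 and 1505. The list's median of 1.24 became 0.64 without KO GFP replicate 3, where 1 was called, and none was called without KO MET/CAT replicate 1, 2 or 3.

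Of the markers of other cells limma called Timp1. None of 18 tested lymphocyte, 21 endothelial or 12 cholangiocyte and progenitor genes was called, with medians of 0.50, 0.36 and 0.92. The lymphocyte median was 0.25 without KO GFP replicate 3. Sox9, a transcription factor of bile duct and progenitor cells, came nearest, at 42.9, 59.6 and 29.8 in KO GFP and 639, 289 and 104 in KO MET/CAT livers (log2 difference 2.63, adjusted p = 0.0515). It passed with edgeR (adjusted p = 0.0405) and DESeq2 (adjusted p = 4.22e-05), and in limma without KO MET/CAT replicate 3. Krt19, Spp1 and Krt7 were at 1.61, 0.88 and 1.199. Of the endothelial genes, Pecam1 (log2 difference 1.16, adjusted p = 0.102) and Eng (log2 difference 0.76, adjusted p = 0.122) came nearest, and of the lymphocyte genes Cd52 (log2 difference 1.29, adjusted p = 0.0687). DESeq2 called Krt19 (adjusted p = 0.019) and Cd52 (adjusted p = 0.012), and edgeR neither. No haemoglobin or other blood gene of 6 was called, with Hba-a1 at log2 difference 1.45, adjusted p = 0.145.

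Timp1, an inhibitor of matrix metalloproteinases, was the 1 of 24 stellate cell and matrix genes that rose, from 5.27, 4.803 and 2.71 to 169, 79.5 and 108 (log2 difference 4.48, SE 0.53, limma adjusted p = 0.00406), and it passed in all 6 fits without 1 KO library. Des, a stellate cell filament, was at log2 difference 1.09, adjusted p = 0.0957, and the matrix protein Ecm1 at log2 difference 1.57, adjusted p = 0.17. Of the pancreas, fat and kidney genes 2 of 12 were expressed enough to test, and Cela1 was at 130 to 701 in KO GFP and 538 to 899.7 in KO MET/CAT livers (log2 difference 1.08, adjusted p = 0.217).

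**Figure D4:**
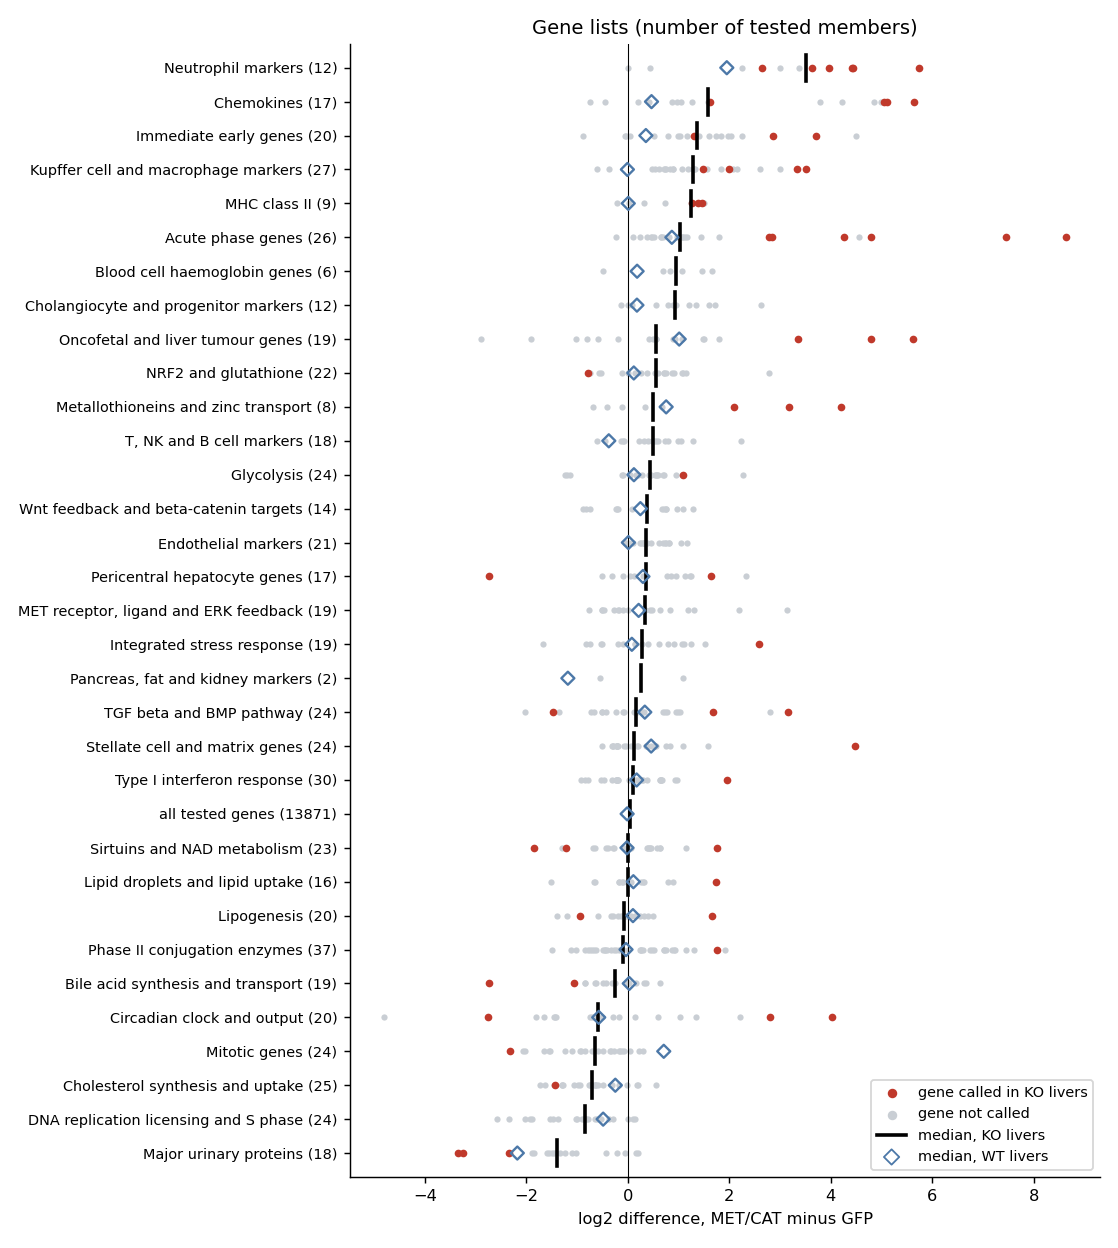
Log2 difference MET/CAT minus GFP for the members of 32 gene lists (number of tested members in brackets). Points are genes in KO livers, red where called, black bars the list medians in KO livers and open diamonds the medians in WT livers. The neutrophil list has the highest KO median, 3.51, and the major urinary proteins the lowest, -1.41.

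Among genes of the injected pathways limma called Glul and, lower, the pericentral gene Cyp7a1. Glul encodes glutamine synthetase, a beta-catenin target of pericentral hepatocytes. It was at 21664, 19194 and 17955 in KO GFP and 67363, 85906 and 38359.7 in KO MET/CAT livers (log2 difference 1.63, SE 0.30, limma adjusted p = 0.0222), and passed in 1 of the 6 fits without 1 KO library. The WT libraries were at 22829, 16514 and 17994 under GFP and 59596, 36972 and 63360.1 under MET/CAT. None of 14 tested Wnt feedback genes and beta-catenin targets was called (median 0.39). Axin2, a scaffold of the destruction complex, was at 84.3, 50.9 and 72.3 under GFP and 84.3, 172 and 90.2 under MET/CAT (log2 difference 0.68, SE 0.37, limma adjusted p = 0.311). Lgr5, the R-spondin receptor, was at 30.1, 37.5 and 70.5 under GFP and 80.7, 104 and 73.2 under MET/CAT (log2 difference 0.96, SE 0.38, limma adjusted p = 0.181). Nkd1, a cytosolic inhibitor of Wnt signalling (log2 difference 1.29, adjusted p = 0.115), Notum, a secreted one (log2 difference 0.70, adjusted p = 0.184), and the receptor Tnfrsf19 (log2 difference -0.88, adjusted p = 0.199) had the smallest p beside Lgr5. DESeq2 called Nkd1 (adjusted p = 0.0375), and edgeR did not (adjusted p = 0.119).

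Of 17 tested pericentral genes, Glul rose and Cyp7a1 fell. The glutamate transporter Slc1a2 (log2 difference 1.23, adjusted p = 0.0737) and the ammonium transporter Rhbg (log2 difference 2.33, adjusted p = 0.0789) missed the threshold. The reads of Met itself were at 1122, 959 and 1673 in KO GFP and 814, 583 and 776 in KO MET/CAT livers (log2 difference -0.76, SE 0.23, limma adjusted p = 0.116). Met in WT livers was at 777, 745 and 836 under GFP and 706, 960 and 626 under MET/CAT (log2 difference -0.06), and the KO GFP mean was the highest of the groups. The reads of Ctnnb1 were at 2081, 1727 and 2955 in KO GFP and 2187, 1125 and 1555 in KO MET/CAT livers (log2 difference -0.49, SE 0.33, limma adjusted p = 0.417). The species of the injected MET is not given in the labels, and whether reads of either transposon counted toward the mouse gene was not tested. Limma called none of 19 tested genes of MET, its ligand and ERK feedback. Plaur (log2 difference 3.14, adjusted p = 0.101), Phlda1 (log2 difference 2.19, adjusted p = 0.131) and Etv5 (log2 difference 1.19, adjusted p = 0.148) had the smallest p with Met, and Phlda1 was at 3805, 1009.6 and 520.1 across KO MET/CAT replicates 1 to 3. DESeq2 called Plaur (adjusted p = 0.00254), Met (adjusted p = 0.0319) and Phlda1 (adjusted p = 0.0381), which edgeR did not call.

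Of 19 tested oncofetal and liver tumour genes 3 rose, and Lcn2, described above, is 1 of them. Dlk1, a Notch-related surface protein of hepatoblasts, had 2 reads in the KO GFP libraries and 237 in the KO MET/CAT libraries, a ratio of 151 (95% exact counting interval 41.3 to 1254). It was at 143, 103 and 21.2 in the KO MET/CAT replicates (log2 difference 5.62, SE 0.83, limma adjusted p = 0.00741) and passed without each KO library. Ly6d, a GPI-anchored surface protein, went from 19.6, 17.3 and 18.1 to 216, 276 and 128 (log2 difference 3.36, SE 0.65, limma adjusted p = 0.0267). Tff3 was lower in value, at 137, 501 and 77.7 under GFP and 14.5, 16.7 and 46.7 under MET/CAT, and missed the threshold with limma (log2 difference -2.90, adjusted p = 0.061). It passed with edgeR (adjusted p = 0.0469) and DESeq2 (adjusted p = 0.000168).

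Proliferation genes were lower in value in KO MET/CAT than in KO GFP livers. For KO GFP against WT GFP livers, the list medians were 0.87 for replication and 1.19 for mitotic genes. By mean deviation, WT GFP replicate 1 lay inside the KO GFP range in both lists. For MET/CAT against GFP in WT livers, the medians were -0.49 for replication and 0.71 for mitotic genes. Of 24 tested genes of DNA replication, 21 had a lower value, against 46.8% of all tested genes, and limma called none (median -0.85). Pcna, the replication clamp, was at 678, 782 and 867 in KO GFP and 408, 508 and 435 in KO MET/CAT livers, without overlap (log2 difference -0.78, adjusted p = 0.0642). The replication factors Mcm10 (log2 difference -1.37, adjusted p = 0.105), Mcm6 (log2 difference -1.53, adjusted p = 0.11) and Mcm5 (log2 difference -1.89, adjusted p = 0.128) did not pass with limma. Pcna passed with edgeR (adjusted p = 0.0469) and DESeq2 (adjusted p = 0.00373). DESeq2 also called Mcm6 (adjusted p = 0.00555), Mcm10 (adjusted p = 0.0116) and Mcm5 (adjusted p = 0.0123), which edgeR did not call. Of 24 mitotic genes, 21 had a lower value and 1 fell: Ect2, the exchange factor of cytokinesis, from 35.4, 50.9 and 102 to 7.23, 13.6 and 11.7 (log2 difference -2.33, SE 0.52, limma adjusted p = 0.0461). In WT livers Ect2 was at 21.9, 10.2 and 8.66 under GFP and 17.9, 11.6 and 13.3 under MET/CAT. Its KO call was lost in each of the 6 fits without 1 KO library. Top2a was at 45.9, 115 and 187 under GFP and 15.7, 85.8 and 28.7 under MET/CAT, with KO MET/CAT replicate 2 inside the KO GFP range (log2 difference -1.53, adjusted p = 0.246). The median of the mitotic list, -0.66, was -0.35 without KO GFP replicate 3 and -0.16 without KO MET/CAT replicate 1, and -1.16 and -1.23 without KO GFP replicate 1 and KO MET/CAT replicate 2. It changed sign under 1 alternative.

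Among immediate early genes, which cells switch on within minutes of a stimulus, 1 library was far ahead. Of 20 tested, 3 rose, with a median of 1.36 that was 0.80 without KO MET/CAT replicate 1. The count was 0, 0 and 1 without KO GFP replicate 1, 2 and 3 and 1, 1 and 4 without KO MET/CAT replicate 1, 2 and 3. Junb, an AP-1 subunit, was at 144, 233 and 233 in KO GFP and 8095, 1903 and 1146 in KO MET/CAT livers (log2 difference 3.71, SE 0.71, limma adjusted p = 0.0263). Btg2, an antiproliferative co-regulator, was at 102, 158 and 284 under GFP and 3597, 689 and 722 under MET/CAT (log2 difference 2.86, SE 0.54, limma adjusted p = 0.0227). Jund, another AP-1 subunit, went from 1357, 1377 and 909 to 4038, 3099 and 2088 (1.31, limma adjusted p = 0.0334). KO MET/CAT replicate 1 was the highest for each, and Ier3 reached 1427, 50.2 and 18.05 across the replicates without a call (log2 difference 4.50, adjusted p = 0.0894). Junb passed in 1 of the 6 fits without 1 KO library, Btg2 in 4 and Jund in 1. Id3 and Id2, inhibitors of basic helix-loop-helix factors and targets of BMP signalling, rose as well. Id3 went from 711, 424 and 187 to 7089, 3552 and 1596 (log2 difference 3.16, SE 0.52, limma adjusted p = 0.0122) and Id2 from 1215, 547 and 294 to 2018, 1986 and 1631 (log2 difference 1.69, adjusted p = 0.0396). Tgfbr2, the type II TGF-beta receptor, fell from 492, 448 and 636 to 193, 122 and 273 (log2 difference -1.48, SE 0.30, limma adjusted p = 0.0331). Its WT values were 290, 197 and 322 under GFP and 305, 319.5 and 221 under MET/CAT, so that KO GFP livers were the high group. Id3, Id2 and Tgfbr2 were the calls among 24 tested genes of the TGF-beta and BMP pathway. Tgfb1 did not pass (log2 difference 1.04, adjusted p = 0.0671).

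Stress and interferon lists held 1 call each, and none of these lists held a call without KO GFP replicate 3. Without that library the median of the integrated stress list went from 0.27 to -0.008. That of the NRF2 and glutathione list went from 0.55 to 0.21. Nupr1, a stress-induced nuclear protein, was the 1 of 19 genes of the integrated stress response that rose, from 12.8, 19.2 and 8.14 to 74.7, 151 and 46.7 (log2 difference 2.58, SE 0.46, limma adjusted p = 0.0193). Ppp1r15a (log2 difference 1.25, adjusted p = 0.107), Atf4 (log2 difference 0.92, adjusted p = 0.13) and Phgdh (log2 difference 1.52, adjusted p = 0.209) did not pass. Of 22 tested NRF2 and glutathione genes Gclm, a subunit of the enzyme that starts glutathione synthesis, fell from 3645, 3525 and 4336 to 2772, 1910.3 and 2080.5 (log2 difference -0.78, SE 0.18, limma adjusted p = 0.0468). Gclm in WT livers was at 2463, 2170.1 and 2485 under GFP and 2393, 2307 and 2328 under MET/CAT, so that KO GFP livers were the high group. Hmox1, which degrades heme, was at 241, 187 and 127 under GFP and 5169.6, 573 and 632 under MET/CAT, again highest in KO MET/CAT replicate 1 (log2 difference 2.78, adjusted p = 0.0527). Gstm3 (log2 difference 1.15, adjusted p = 0.0922) and Ugdh (log2 difference -0.74, adjusted p = 0.118) did not pass. Of 30 tested genes of the type I interferon response, Mx2, an antiviral GTPase, rose from 48.9, 37.5 and 27.1 to 142, 152 and 143 (log2 difference 1.96, SE 0.34, limma adjusted p = 0.0156), and the list's median of 0.09 was near that of all genes. Irf9 (log2 difference 0.66, adjusted p = 0.116), Bst2 (log2 difference 0.97, adjusted p = 0.166) and Oasl1 (log2 difference 0.66, adjusted p = 0.19) were not called.

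Clock genes moved in opposite directions. The liver clock runs on the activators ARNTL (BMAL1) and CLOCK, the repressors PER and CRY, and output factors such as DBP and its antagonist NFIL3. Arntl was at 8.28, 2.88 and 25.3 in KO GFP and 249, 184 and 85.98 in KO MET/CAT livers (log2 difference 4.02, SE 0.73, limma adjusted p = 0.0211). Nfil3 was at 178, 219 and 256 under GFP and 2113, 1605 and 1014 under MET/CAT (log2 difference 2.80, SE 0.39, limma adjusted p = 0.00579). Per3 was at 648, 482 and 600.2 under GFP and 75.9, 65.9 and 119 under MET/CAT (log2 difference -2.75, SE 0.47, limma adjusted p = 0.0148). Nfil3 and Arntl thus rose and Per3 fell, the 3 calls among 20 tested clock genes.

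Dbp had the lowest log2 difference of the list, with 2430.3, 2643 and 2258 in KO GFP and 75.9, 15.7 and 516 in KO MET/CAT livers, and just missed the threshold (log2 difference -4.81, adjusted p = 0.0527). Per2 (log2 difference -1.44, adjusted p = 0.0713), Nr1d2 (log2 difference -1.65, adjusted p = 0.0719) and Tef (log2 difference -1.46, adjusted p = 0.0758) were lower in value and Clock (log2 difference 1.35, adjusted p = 0.0752) higher, all without a call. The WT log2 differences were 3.06 for Arntl, 1.61 for Nfil3, -2.65 for Per3 and -4.65 for Dbp. The hour of collection is not given in the labels, and its part in these differences was not tested. Nfil3 passed in all 6 fits without 1 KO library, and Arntl and Per3 in 2 each.

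Major urinary proteins, pheromone carriers secreted by the liver in large amounts, had the lowest list median, -1.41. Of 18 tested genes 3 fell and 16 were lower in value, against 46.8% of all tested genes. The median was -0.73 without KO GFP replicate 1 and -0.73 without KO MET/CAT replicate 3, where other lists were lower, and -2.19 without KO GFP replicate 3. Mup19 went from 1879.9, 835 and 439 to 159, 99.4 and 48.8 (log2 difference -3.25, SE 0.53, limma adjusted p = 0.0121), Mup2 from 238, 171 and 146 to 50.6, 35.6 and 23.4 (log2 difference -2.35, SE 0.34, limma adjusted p = 0.00741) and Mup15 from 539, 147 and 73.2 to 31.3, 15.7 and 9.55 (log2 difference -3.34, SE 0.72, limma adjusted p = 0.0415). The 3 members with the highest normalized counts were not called, with log2 differences of 0.17 for Mup3, 0.19 for Mup17 and -0.22 for Mup20. Mup3 and Mup17 were the 2 members higher in value. Copies are nearly identical, 99.6% between the longest transcripts of Mup2 and Mup19 and 99.1% between Mup15 and Mup19, and reads shared between copies make single members uncertain. KO GFP replicate 3 was the lowest KO GFP library in all 3, and without it 5 of the 18 were called lower. Lists of sex-biased liver genes, without a call in the main fit, also varied within groups. By mean deviation, female-biased genes stood at -1.585, -1.681 and 1.886 in KO GFP and 0.877, -1.746 and 0.09 in KO MET/CAT replicates 1 to 3. Male-biased genes stood at 0.821, 1.038 and 0.189 and at -0.35, 1.294 and -0.726. Their relation to the major urinary protein values was not tested.

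Of 19 tested bile acid genes, Cyp7a1 and Abcc2 fell and none rose, with a list median of -0.26. Cyp7a1, the rate-limiting enzyme of bile acid synthesis from cholesterol, was at 2642, 2604 and 8181 in KO GFP and 513, 783 and 477 in KO MET/CAT livers (log2 difference -2.73, SE 0.41, limma adjusted p = 0.00741). KO GFP replicate 3 was the highest, and the gene passed in all 6 fits without 1 KO library. Abcc2, the canalicular exporter of bilirubin and drug conjugates, went from 4483, 3641 and 6896 to 2854, 1989 and 2188 (log2 difference -1.06, SE 0.24, limma adjusted p = 0.0458). Abcc2 in WT livers was at 3409, 2574 and 3411 under GFP and 3050.1, 2530 and 2546 under MET/CAT, so that KO GFP livers were the high group. Without KO GFP replicate 1 or 3 or any 1 KO MET/CAT library, 1 of the 19 was called. The bile acid importer Slc10a1 (log2 difference -0.85, adjusted p = 0.092) and the reductase Akr1d1 (log2 difference -0.66, adjusted p = 0.148) did not pass. Klb, the FGF co-receptor beta-klotho (log2 difference -1.62, adjusted p = 0.0461), Abcg8, part of the canalicular sterol exporter (log2 difference -1.49, adjusted p = 0.0371), and Npc1, the lysosomal cholesterol exporter (log2 difference -1.59, adjusted p = 0.0267), also fell and were picked out after their values were seen.

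Of 25 tested genes of cholesterol synthesis and uptake, 22 had a lower value, against 46.8% of all tested genes. The list's median was -0.71, and 1 gene fell. That was Stard4, a cytosolic sterol carrier, at 2307, 2410.1 and 2979.5 in KO GFP and 727, 928 and 1216 in KO MET/CAT livers (log2 difference -1.44, SE 0.28, limma adjusted p = 0.0268). Stard4 passed in 1 of the 6 fits without 1 KO library, and no gene of the list was called without KO GFP replicate 3. The synthesis enzymes Lss (log2 difference -1.73, adjusted p = 0.0783), Nsdhl (log2 difference -1.30, adjusted p = 0.0813) and Msmo1 (log2 difference -1.46, adjusted p = 0.115) missed the threshold. Their mean deviation was lowest in KO MET/CAT replicate 1, where the list stood at -1.18 against -0.41 and -0.002 in replicates 2 and 3. Fads2, a desaturase of polyunsaturated fatty acids, fell from 6416, 6671 and 9641 to 3987, 3653 and 3929.6 (log2 difference -0.95, SE 0.19, limma adjusted p = 0.0301). In WT livers Fads2 was at 4804, 4646 and 4081 under GFP and 6520, 7135 and 5551 under MET/CAT (log2 difference 0.50). Insig2, which holds SREBP in the endoplasmic reticulum, rose from 1410.1, 994 and 1141 to 3283, 3610.4 and 4234 (log2 difference 1.66, SE 0.34, limma adjusted p = 0.037). Those were the calls among 20 lipogenesis genes, and both were lost in each of the 6 fits without 1 KO library. Pklr (log2 difference -1.19, adjusted p = 0.176) and Gpam (log2 difference -1.40, adjusted p = 0.215) did not pass. Plin5, a lipid droplet coat protein, rose from 988, 1194 and 677 to 2801, 3458 and 3067 (log2 difference 1.74, SE 0.39, limma adjusted p = 0.0461), alone among 16 droplet and uptake genes, where Pparg was at log2 difference -0.66, adjusted p = 0.134. Plin5 too lost its call in each of those 6 fits.

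Sirtuins such as Sirt2 consume NAD. Of 23 tested genes of sirtuins and NAD metabolism 2 fell and 1 rose, with a median of 0.01. Nampt, the rate-limiting enzyme of NAD salvage, fell from 2522, 2264 and 2323 to 1215, 1044 and 839 (log2 difference -1.21, SE 0.25, limma adjusted p = 0.0386). Nmrk1, a nicotinamide riboside kinase, fell from 903, 774 and 824 to 259, 197 and 242 (log2 difference -1.84, SE 0.36, limma adjusted p = 0.0296). Nnmt, which methylates nicotinamide, rose from 2582, 2144 and 1993 to 7369.6, 7928 and 7421 (log2 difference 1.76, SE 0.30, limma adjusted p = 0.0133), and was also the 1 call among 37 conjugation enzymes. The WT livers gave Nnmt at 5566, 8298 and 3187 under GFP and 4539, 3260.5 and 5849 under MET/CAT (-0.26). Cd38, an NAD hydrolase, was at log2 difference 1.14, adjusted p = 0.0961. Without each KO library in turn, Nampt and Nmrk1 lost their calls in all 6 fits and Nnmt kept its call in 4. Among conjugation enzymes, Sult2a8 (log2 difference -1.03, adjusted p = 0.0701), Ugt2b34 (log2 difference -0.74, adjusted p = 0.072) and Ugt2b35 (log2 difference -0.85, adjusted p = 0.0731) had the smallest p after Nnmt. Of 24 glycolysis genes, Pkm, the pyruvate kinase isoform gene of growing and non-parenchymal cells, rose from 377, 416 and 256 to 868, 726 and 605 (log2 difference 1.08, SE 0.22, limma adjusted p = 0.0302). Its WT values were 565, 643 and 606 under GFP and 712, 700.2 and 576 under MET/CAT, so that KO GFP livers were the low group. Pkm passed in 2 of the 6 fits without 1 KO library. Without KO GFP replicate 3 no glycolysis gene was called, and the list's median went from 0.43 to 0.24. The glucose transporter Slc2a2 (log2 difference -1.15, adjusted p = 0.0515) and lactate dehydrogenase Ldha (log2 difference 0.95, adjusted p = 0.077) did not pass.

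The gene that fell most was Nrep, a small protein first described in regenerating neurons. It was at 1343, 1717 and 1124 in KO GFP and 189, 122 and 75.4 in KO MET/CAT livers (log2 difference -3.50, SE 0.50, limma adjusted p = 0.0067), with no KO MET/CAT library near the KO GFP range, and passed without each KO library. Clec2h, a C-type lectin, went from 106, 147 and 158 to 36.1, 14.6 and 4.25 (log2 difference -3.23, SE 0.68, limma adjusted p = 0.0386). Wee1, the kinase that restrains entry into mitosis, was at 169, 77.8 and 298 under GFP and 16.9, 32.4 and 22.3 under MET/CAT (log2 difference -2.72, adjusted p = 0.0396). In WT livers Wee1 was at 43.9, 26.1 and 21.7 under GFP and 12.96, 48.5 and 12.2 under MET/CAT, so that KO GFP livers were the high group. Rnf152, a lysosomal ubiquitin ligase (log2 difference -1.91, adjusted p = 0.0418), and Nr3c2, the mineralocorticoid receptor (log2 difference -1.89, adjusted p = 0.0238), also fell. Slc5a6, a vitamin transporter, went from 386, 381 and 310.1 to 108, 109 and 121 (log2 difference -1.66, SE 0.28, limma adjusted p = 0.014). Atp7b, the copper exporter mutated in Wilson disease, was at 460.0, 419.8 and 1096 under GFP and 169, 148 and 273 under MET/CAT (log2 difference -1.65, adjusted p = 0.0461), with KO GFP replicate 3 the highest. Its WT values were 301, 204 and 396 under GFP and 212, 305 and 227 under MET/CAT, so that KO GFP livers were the high group here too.

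The calls that did not depend on any 1 library were 30. Of the 174 genes, these passed in every fit that left out 1 of the 12 libraries: 24 that rose and 6 that fell. Besides genes described above they held Siglece, an inhibitory sialic acid receptor of myeloid cells (3.19), Ncf1, a subunit of the phagocyte NADPH oxidase (2.01), Cotl1, an actin-binding protein (1.44), and Efna1, a ligand of Eph receptors (2.63). Clpx, the unfoldase of a mitochondrial protease, was at 1.94, and Acnat2, a liver acyltransferase, at 2.02. Among those that fell was Aox3, a hepatic aldehyde oxidase (-1.21). These 7 were picked out after their values were seen. Every other called gene lost its call in at least 1 of those fits.

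In livers with intact Sirt2 the same injection called 47 genes, 0.339% of those tested. That comparison sets other libraries against each other but shares the estimate of the spread with the KO comparison, so the 2 tests are not independent. Both lists held 14 genes, 8.0% of the KO list and 29.8% of the WT list, and all 14 moved the same way. Those that rose in both included Acod1, Cxcl13, Dlk1, Mt2, Spic, Mid1, Clpx and Nedd4l, and those that fell in both were Nrep, Mup15, Mup19, Per3 and Fnip2. Of the 119 genes that rose in KO livers 109 had a higher value in WT livers, with a median log2 difference of 2.11 in KO and 1.03 in WT livers. Of the 55 that fell 48 had a lower value, with medians of -1.44 and -0.46. The KO values chose these genes, so the larger KO medians are a description. Across all tested genes the log2 differences in the 2 genotypes had a Pearson r of 0.226, with genes not independent of each other.

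**Figure D5:**
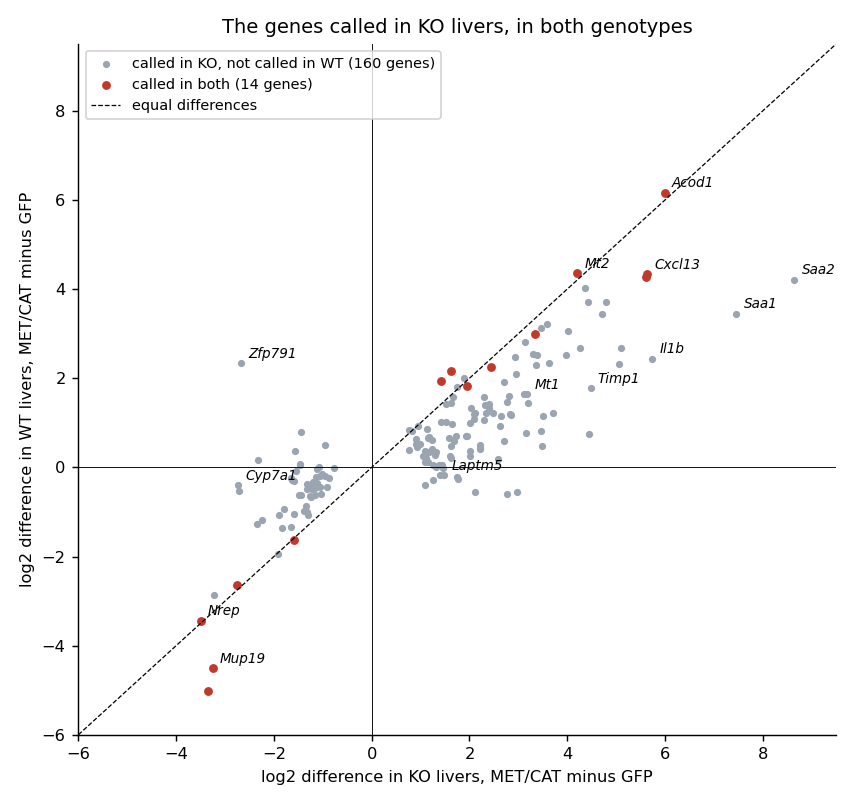
Log2 difference MET/CAT minus GFP in KO livers (x axis) and in WT livers (y axis) for the 174 genes called in KO livers. Red points are the 14 called in both genotypes. The dashed line marks equal differences, with Mt2 near it at 4.20 and 4.35 and Saa2 below it at 8.64 and 4.21. In WT MET/CAT replicate 1 Saa2 was at 928, against 24425 and 40490 in replicates 2 and 3.

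The test of the difference between genotypes found no gene. Subtracting the WT effect from the KO effect in the same limma fit gave 0 called genes, 0.0% of those tested, with a smallest adjusted p of 0.19. An unadjusted p under 0.05 was found for 2153 genes. edgeR called 0 genes for this difference and DESeq2 169. The fits without 1 library gave 3 calls (KO GFP replicate 2 left out), 2 (KO GFP replicate 3), 1 (KO MET/CAT replicate 3), 3 (WT MET/CAT replicate 1) or 4 (WT MET/CAT replicate 3), and 0 for each other library. Among the genes with the smallest p were Zfp791, Trf, Etfb and Gm47283, all at an adjusted p of 0.19. Zfp791, a zinc finger gene, fell in KO livers from 129, 145 and 113 to 9.63, 14.6 and 48.8 (log2 difference -2.68, adjusted p = 0.0417), and in WT livers was at 17.95, 5.67 and 8.66 under GFP and 31.9, 52.7 and 87.8 under MET/CAT (log2 difference 2.34, limma adjusted p = 0.0899). KO GFP livers were thus the high group.

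Trf, transferrin, was at 1138, 2149 and 391 in KO GFP and 2389, 2976 and 2402 in KO MET/CAT livers, with 4698, 7283 and 5233 under GFP and 1458, 1144 and 994 under MET/CAT in WT livers. Its log2 difference was 1.38 in KO and -2.25 in WT livers. Etfb, a mitochondrial electron carrier subunit, had 1.71 and -2.16, and Gm47283, a predicted gene, 1.56 and -2.08. For these 3 the KO GFP libraries all lay below the WT GFP libraries. Laptm5 had WT values of 519, 520.1 and 493 under GFP and of 475, 510.4 and 385 under MET/CAT, a WT log2 difference of -0.17 against 1.49 in KO livers (difference 1.66, adjusted p = 0.19). For Saa2 the difference between the 2 effects was 4.44 (adjusted p = 0.265). Saa2 in WT livers was at 211, 1292 and 528 under GFP and 928, 24425 and 40490 under MET/CAT, with WT MET/CAT replicate 1 far below the others. For Cyp7a1, which in WT livers was at 1268, 1142 and 2135 under GFP and 758, 1408 and 1273 under MET/CAT, the difference between the 2 effects was -2.34 (adjusted p = 0.265). An adjusted p above the threshold does not show that the genotypes responded alike.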

How the data were processed

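The 12 libraries were made from whole-liver RNA. The tools named in the submitters' processing notes are HISAT2 2.0.4 and HTSeq 0.11.2, with GRCm38 as the build. Normalization tool, library kit and strand setting are not given here, so overlapping and antisense genes can share reads. The authors deposited 1 normalized signal per gene, here called normalized counts. Its values were whole multiples of 1 step per library (0.753 to 1.204 units per read), which gave whole reads for 100% of values (tolerance 0.01). Of 47263 genes 23020 had no read.

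limma 3.58.1 (R 4.3.3) with a mean-variance trend was fitted on log2(value + 1) over 12 libraries and 4 group means without a block, for genes with at least 10 in at least 3 libraries. Fold changes on this scale understate the change of low genes. edgeR 4.0.16 and DESeq2 1.42.0 were run on the recovered reads as alternatives. Of GENCODE M21 positions on the same build 47086 symbols matched. Named genes were 6 core genes, the 15 largest called changes in each direction with a group mean of at least 100 and no overlap, leaving out predicted genes, and up to 4 per described list by smallest p (all called ones where at most 5 were). A list was described where a member was called or where it held pathway, cell cycle or cell type genes (32 of 53 lists). A few genes that the rule picks are not reported here. Further members of these lists are named as examples picked after their values were seen. Members and lists were chosen with earlier results of these data known. The limma script was tested on simulated data. Libraries of a group differed by more than sampling noise. Promoter windows and their letters are from RefSeq.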

Additional observations from a re-analysis of the deposited data

How the results depend on the processing

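Against 174 called genes, limma called 1635 with library quality weights, 86 with only the 6 KO libraries (71 of them shared) and 73 with the length trend removed and KO GFP replicate 3 left out, an alternative chosen after seeing the data. DESeq2 called 928. Leaving out 1 library gave 48 to 263. The count stayed within 1.5 times under the other pseudocounts, filters and normalizations. For the difference between genotypes, 0 in the main fit, DESeq2 called 169, quality weights 1374, and the length trend with KO GFP replicate 3 left out 2. Leaving out 1 library gave 0 to 4. The replicate block gave 2 and the other alternatives 0.

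The labels state no pairing of libraries by replicate number. Same-numbered libraries had correlations of deviations from -0.20 to 0.28. Differently numbered libraries were not set beside them, so these values do not decide whether libraries were paired. With the replicate block 187 genes were called (136 higher, 51 lower, 148 shared). For named genes, 3006 values under alternatives kept direction and side of the threshold, 368 lost the call and 141 gained one. Of the list medians 750 stayed within the spread between replicates and 50 moved beyond it. Of 32 lists, 10 had a median that changed sign under at least 1 alternative: sirtuins and NAD, lipid droplets, lipogenesis, TGF-beta, type I interferon, pancreas, fat and kidney, stellate cell, stress response, conjugation and mitotic genes. With 3 libraries a group, genes of few reads have wide intervals, and a fit without 1 library assumes that the remaining ones vary like the other groups.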

Other observations

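Lists that held no called gene in KO livers were looked at after their values were seen. Of 20 tested interferon gamma GTPases and related genes, the median log2 difference of MET/CAT against GFP was -0.06 in KO and 1.71 in WT livers. Per KO MET/CAT replicate 1 to 3 the list deviated by 1.05, -1.01 and -0.55 from the mean of all libraries. Cxcl10, an interferon-induced chemokine, was at 24.1, 24.97 and 15.4 in KO GFP and 13056, 79.5 and 64.8 in KO MET/CAT livers (limma adjusted p = 0.186), and Irf1 at 235, 184 and 208 and 7684, 547 and 462 (limma adjusted p = 0.119). KO MET/CAT replicate 1 was the highest for both.

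Of all tested genes 53.2% had a higher value in KO MET/CAT than in KO GFP livers. Of 44 nuclear-encoded genes of oxidative phosphorylation, 42 had a higher value and none was called. Their median was 0.51, 0.20 without KO GFP replicate 3, and 0.22 with the transcript length trend removed, against -0.29 in WT livers. Of 39 urea cycle and amino acid breakdown genes 30 had a higher value and none was called (median 0.40).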
